A study of Cucumis melo with 24 samples.

Results

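Metallothionein-like protein 4A (MELO3C003132.2) and L-ascorbate oxidase (MELO3C015643.2) are 2 of the 29980 genes measured in melon (Cucumis melo) fruit flesh. They were chosen by their measured levels: both were abundant in immature flesh, and both kept high levels in older flesh of the cmnac-nor mutant. Their levels and genotype differences are therefore given as a description, without a test. RNA sequencing covered cmnac-nor mutant flesh at 15, 25, 35 and 45 days after pollination (DAP) and wild-type (WT) flesh at the same 4 ages, with 3 libraries in each of these 8 groups. The mutated gene encodes a transcription factor of the NAC family, whose relative in tomato, NOR, is required for normal fruit ripening. The labels name no cultivar, give no account of how the mutant allele arose, and do not tie libraries to fruits or plants, so every p-value below measures the spread between these libraries only.

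Metallothioneins are small cysteine-rich proteins that bind metal ions such as zinc and copper. Plant metallothioneins fall into several types by the spacing of their cysteines, and in Arabidopsis the type 4 proteins are known mainly from seeds, where they hold zinc. L-ascorbate oxidase is a multicopper oxidase of the cell wall space that oxidizes ascorbate (vitamin C) to monodehydroascorbate while reducing oxygen to water. The enzyme is classically abundant in fruits of the gourd family, to which melon belongs. Ascorbate is made in plants mainly by way of GDP-mannose and galactose, and its oxidized forms are reduced again by monodehydroascorbate reductase and dehydroascorbate reductase. Glutathione reductase keeps reduced the glutathione that dehydroascorbate reductase uses.

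Levels are TPM, transcript abundances scaled by gene length and by the total of the library, so levels of different genes can be set side by side. TPM summed to between 927159 and 963192 per library, and 13820 to 16044 genes reached 1 TPM in a library. The sequencing depth cannot be recovered from TPM and is unknown. Transcript of the gene mutated in the line (MELO3C016540.2, identifier known from published work, described as a NAC domain protein) was present in both genotypes. It was at 24.6 to 320 TPM in mutant and 575 to 1027 TPM in WT flesh at 15 DAP, and at 1808 to 1920 TPM in mutant and 430 to 511 TPM in WT flesh at 45 DAP. Its level therefore gives no check of the genotype labels by absence.

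Metallothionein-like 4A was among the most abundant transcripts of mutant flesh at every age, whereas in WT flesh it was the top transcript at 15 DAP and low from 35 DAP on. At 15 DAP it had 12166, 15170 and 14357 TPM in the mutant libraries, against 25094, 25445 and 22365 TPM in the WT libraries. At 25 DAP it had 15134, 6887 and 20251 TPM in the mutant libraries, against 6342, 4245 and 3033 TPM in the WT libraries. The groups did not overlap at either age, with the mutant below WT at 15 DAP and above it at 25 DAP. At 35 DAP it had 9481, 10646 and 12445 TPM in the mutant libraries, against 36.3, 13.3 and 32.0 TPM in the WT libraries. At 45 DAP it had 7826, 17903 and 9827 TPM in the mutant libraries, against 87.1, 20.0 and 21.4 TPM in the WT libraries. Every mutant library at these later ages was therefore far above every WT library.

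**Figure D1:**
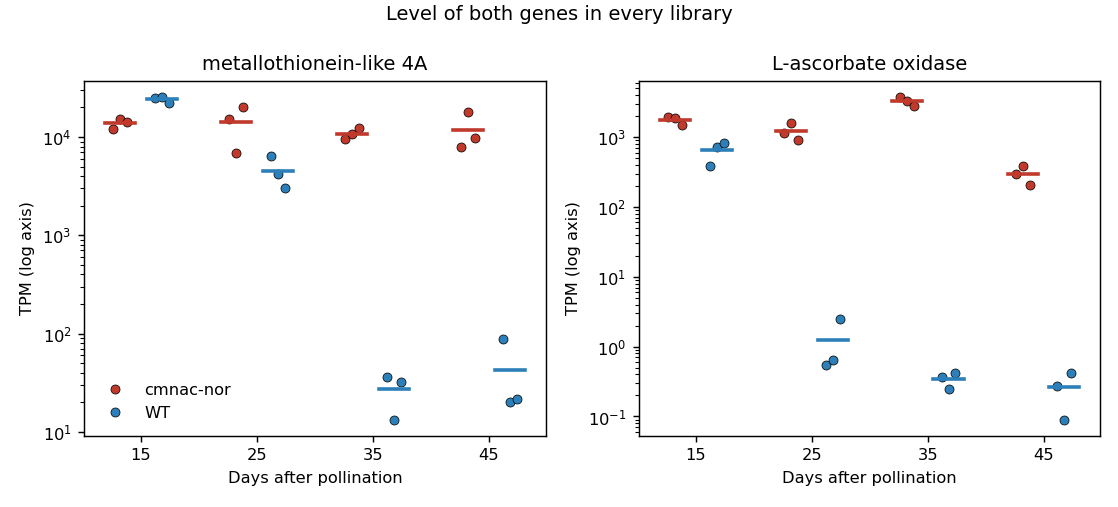
TPM of metallothionein-like 4A (left) and L-ascorbate oxidase (right) on log axes against days after pollination. Each point is 1 library and each bar the mean of 3, with cmnac-nor mutant in red and WT in blue. Metallothionein-like 4A stays between 6887 and 20251 TPM in all mutant libraries, while L-ascorbate oxidase is below 3 TPM in every WT library from 25 DAP on.

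On the log2(TPM + 1) scale, on which changes of low genes are understated, the difference in metallothionein-like 4A of mutant minus WT at 15, 25, 35 and 45 DAP was -0.81, 1.56, 8.70 and 8.33. The ratio of mean TPM, mutant over WT, was 0.572, 3.10, 399.6 and 277 at these ages. Within WT flesh, the mean fell by 2.48 between 15 and 25 DAP and by 7.38 between 25 and 35 DAP on the log2 scale, without overlap at either step, and the libraries of 35 and 45 DAP overlapped. Within mutant flesh the libraries of neighbouring ages overlapped at all 3 steps, with log2 differences of -0.11, -0.25 and 0.04. In TPM, the SD within a group was largest in mutant flesh at 25 DAP, at 14090 ± 6743 TPM, and at 45 DAP, at 11852 ± 5335 TPM (SD, n = 3 each). It was smaller at 15 DAP, at 13898 ± 1554 TPM in mutant and 24301 ± 1686 TPM in WT flesh, and at 35 DAP in mutant flesh, at 10857 ± 1493 TPM. The WT means were 4540 ± 1674 TPM at 25 DAP, 27.2 ± 12.2 TPM at 35 DAP and 42.8 ± 38.3 TPM at 45 DAP (SD, n = 3 each). Relative to the mean, the spread was largest in WT flesh at 45 DAP, with a coefficient of variation of 89.5%, beside 47.9% and 45.0% in mutant flesh at 25 and 45 DAP.

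The order of the 8 group means of metallothionein-like 4A placed WT at 15 DAP at the top, then the mutant at 25, 15, 45 and 35 DAP, then WT at 25, 45 and 35 DAP. The ranges of neighbours in this order overlapped among the 4 mutant groups and between WT at 45 and 35 DAP, and not elsewhere. Ranked by TPM among all genes of its library, the gene stood between 1 and 4 in all 12 mutant libraries. Its rank in WT libraries was 1 at 15 DAP and 12 to 29 at 25 DAP. In older WT flesh the rank lay between 4418 and 8795 at 35 DAP and between 2111 and 6756 at 45 DAP. It took 0.726% to 2.15% of all TPM in a mutant library, and 2.32% to 2.66% in a WT library at 15 DAP.

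The other metallothionein genes did not share this pattern. Of 3 others described in the table, 2 were measured well enough to be tested, and MELO3C013494.2, also described as metallothionein-like 4A, was listed at 0 throughout. How reads shared by such copies were assigned is not given in the sources used here, so the split between them is uncertain. Genes were tested with limma on log2(TPM + 1) and counted as called when the p adjusted by Benjamini-Hochberg was below 0.05. At that threshold 10.3% of the 17658 genes tested were higher and 7.99% lower in mutant than in WT flesh at 15 DAP. At 25 DAP 48.6% were higher and 18.3% lower, at 35 DAP 41.2% were higher and 23.2% lower, and at 45 DAP 38.5% were higher and 22% lower.

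Metallothionein-like protein type 2 (MELO3C009260.2) was lower in mutant than in WT flesh at all 4 ages. Its mean was 2206 ± 167 TPM in mutant and 6192 ± 815 TPM in WT flesh at 15 DAP, and 2322 ± 78.4 TPM in mutant and 3579 ± 116 TPM in WT flesh at 45 DAP (SD, n = 3 each). At 25 DAP it was 2305 ± 481 TPM in mutant and 4113 ± 198 TPM in WT flesh, and at 35 DAP 2907 ± 159 TPM in mutant and 4174 ± 58.4 TPM in WT flesh (SD, n = 3 each). No mutant library reached the lowest WT library of its age. The log2 changes were -1.48, -0.86, -0.52 and -0.62 at the successive ages (SE 0.16 each), with limma adjusted p-values of 3.68e-06, 0.000103, 0.00732 and 0.00219. With only the 6 libraries of a comparison in the fit, the calls at 15, 35 and 45 DAP ended (limma adjusted p = 0.0523, 0.132 and 0.0716), and under quantile normalization those at 25, 35 and 45 DAP ended (limma adjusted p = 0.51, 0.145 and 0.227).

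The remaining gene, described only as a metallothionein (MELO3C016513.2), was high at a different age in each genotype. In mutant libraries it had 62.5, 158 and 13.9 TPM at 15 DAP, 108, 135 and 63.1 TPM at 25 DAP, 1141, 167 and 340 TPM at 35 DAP, and 10142, 11630 and 8503 TPM at 45 DAP. In WT libraries it had 123, 150 and 62.5 TPM at 15 DAP, 7893, 5395 and 5448 TPM at 25 DAP, 1881, 815 and 1431 TPM at 35 DAP, and 472, 140 and 105 TPM at 45 DAP. The genotypes did not overlap at 25 and 45 DAP and overlapped at 15 and 35 DAP. The gene was lower in mutant than in WT flesh at 25 DAP, with a log2 change of -5.97 (SE 0.74, limma adjusted p = 1.03e-06), and higher at 45 DAP, with a log2 change of 5.70 (SE 0.74, limma adjusted p = 2.11e-06). The log2 changes of -0.99 at 15 DAP and -1.69 at 35 DAP did not pass the threshold (limma adjusted p = 0.395 and 0.0527). Within mutant flesh it rose between 35 and 45 DAP, with a log2 change of 4.64 (limma adjusted p = 0.000122), and within WT flesh between 15 and 25 DAP, with a log2 change of 5.86 (limma adjusted p = 1.51e-06).

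Summed over the metallothionein genes, the level was 16182 ± 1754 TPM in mutant and 30605 ± 2518 TPM in WT flesh at 15 DAP (SD, n = 3 each). At 25 DAP it was 16497 ± 7181 TPM in mutant and 14898 ± 3121 TPM in WT flesh, and the libraries overlapped (SD, n = 3 each). It was 14313 ± 1046 TPM in mutant and 5577 ± 520.0 TPM in WT flesh at 35 DAP, and 24265 ± 6650 TPM in mutant and 3861 ± 250 TPM in WT flesh at 45 DAP (SD, n = 3 each). Metallothionein-like 4A made up, at 15, 25, 35 and 45 DAP, a mean of 85.9%, 84.0%, 75.7% and 47.5% of that sum in mutant flesh. In WT flesh its mean share at the same ages was 79.5%, 29.8%, 0.477% and 1.08%. These sums include a gene chosen for its level and are a description.

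**Figure D2:**
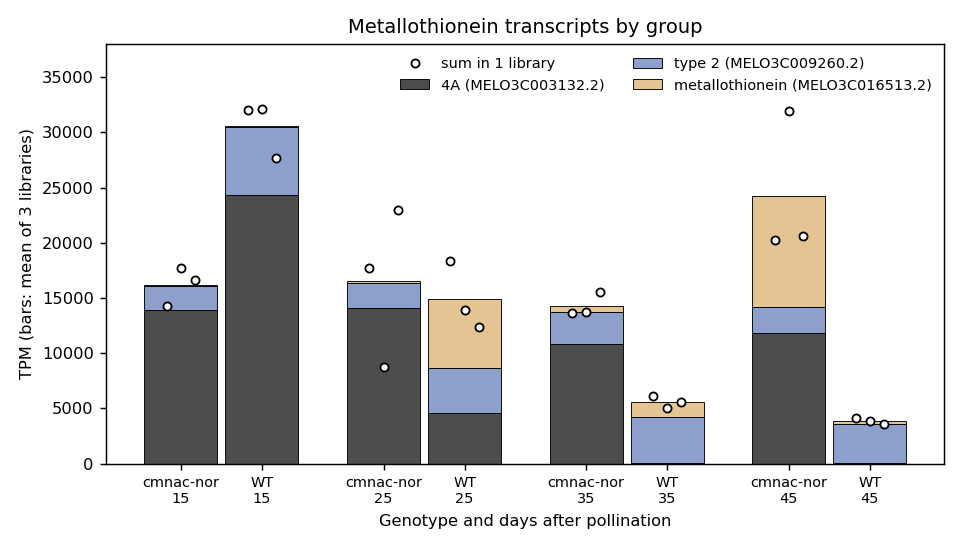
Mean TPM of the 3 detected metallothionein genes, stacked, for cmnac-nor mutant and WT flesh at each number of days after pollination (bars, n = 3 libraries), with the sum in each library as open circles. The mean share of metallothionein-like 4A in the sum is 47.5% or more in every mutant group and 0.477% in WT flesh at 35 DAP.

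L-ascorbate oxidase was higher in mutant than in WT flesh in every library at all 4 ages, and in WT flesh it was near the lower limit of measurement from 25 DAP on. At 15 DAP it had 1956, 1847 and 1474 TPM in the mutant libraries, against 383, 712 and 836 TPM in the WT libraries. At 25 DAP it had 1162, 1573 and 908 TPM in the mutant libraries, against 0.55, 0.65 and 2.52 TPM in the WT libraries. The separation was therefore already present at 15 DAP and was wider at 25 DAP. At 35 DAP it had 3728, 3279 and 2801 TPM in the mutant libraries, against 0.37, 0.25 and 0.42 TPM in the WT libraries. At 45 DAP it had 296, 387 and 205 TPM in the mutant libraries, against 0.27, 0.09 and 0.42 TPM in the WT libraries. The genotypes did not overlap at any age, and within mutant flesh the highest libraries were those of 35 DAP and the lowest those of 45 DAP.

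The log2 difference of mutant minus WT in L-ascorbate oxidase was 1.51, 9.15, 11.24 and 7.84 at 15, 25, 35 and 45 DAP. The last 3 values depend on the pseudocount, since the WT means were 1.24 ± 1.11, 0.347 ± 0.0874 and 0.26 ± 0.165 TPM at 25, 35 and 45 DAP (SD, n = 3 each). The mutant means were 1759 ± 252, 1215 ± 335, 3269 ± 463 and 296 ± 91.1 TPM from the youngest to the oldest flesh, and the WT mean at 15 DAP was 644 ± 234 TPM (SD, n = 3 each). Set against that WT mean at 15 DAP, the mutant means came to 273%, 189%, 508% and 45.9%, and the WT mean at 25 DAP to 0.193%. Within mutant flesh, libraries of 15 and 25 DAP overlapped, the mean at 35 DAP was 1.45 higher than at 25 DAP on the log2 scale, and that at 45 DAP was lower than at 35 DAP by a log2 difference of -3.50. Neither of these later steps showed overlap. Within WT flesh the log2 differences of the successive steps were -8.20, -0.63 and -0.10, and only the libraries of 35 and 45 DAP overlapped.

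The order of the 8 group means of L-ascorbate oxidase ran from mutant flesh at 35 DAP at the top through the mutant at 15 and 25 DAP, WT at 15 DAP, the mutant at 45 DAP, and WT at 25, 35 and 45 DAP. Neighbours whose ranges overlapped were the mutant at 15 and 25 DAP, WT at 15 DAP and the mutant at 45 DAP, and WT at 35 and 45 DAP. By TPM the gene ranked 28 to 51 in mutant libraries of 15 DAP, 37 to 91 in those of 25 DAP, 11 to 19 in those of 35 DAP and 350 to 805 in those of 45 DAP. Its rank was 109 to 328 in WT libraries at 15 DAP and 12514 to 17036 in the older WT libraries.

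Among 16 other genes described as ascorbate oxidases or homologs, 7 passed the filter and the remaining 9 never exceeded 1.28 TPM. The most abundant of the 7, MELO3C013307.2, ran opposite to L-ascorbate oxidase. In mutant libraries it had 14.0, 6.29 and 6.32 TPM at 15 DAP, 9.93, 10.9 and 10.3 TPM at 25 DAP, 12.3, 6.18 and 7.60 TPM at 35 DAP, and 12.2, 103 and 41.7 TPM at 45 DAP. In WT libraries it had 10.7, 64.4 and 27.9 TPM at 15 DAP, 634, 756 and 632 TPM at 25 DAP, 650, 1186 and 466 TPM at 35 DAP, and 402, 557 and 458 TPM at 45 DAP. The genotypes overlapped at 15 DAP and at no later age. The homolog was lower in mutant flesh by limma at 25 DAP (log2 change -5.89, adjusted p = 7.81e-08), 35 DAP (log2 change -6.25, adjusted p = 3.23e-08) and 45 DAP (log2 change -3.60, adjusted p = 3.79e-05), with an SE of 0.60 at each age, while the log2 change of -1.60 at 15 DAP did not pass (limma adjusted p = 0.0703).

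The other tested homologs were low. MELO3C007536.2 was higher in mutant flesh at 25, 35 and 45 DAP, with means of 5.14, 2.15 and 9.26 TPM in mutant and 0.0233, 0.12 and 0.0933 TPM in WT flesh (limma adjusted p = 1.79e-05, 0.00433 and 1.1e-06). Its call at 35 DAP was lost with quantile normalization (limma adjusted p = 0.067). MELO3C017005.2 was lower in mutant flesh at 35 and 45 DAP, at 1.51 and 1.75 TPM in mutant and 12.8 and 11.5 TPM in WT flesh (limma adjusted p = 4.29e-07 and 2.04e-06). MELO3C020889.2 was at 4.02 TPM in mutant and 0.687 TPM in WT flesh at 45 DAP (log2 change 1.57, limma adjusted p = 5.71e-07). Its higher level in mutant flesh at 25 DAP, a log2 change of 0.97, turned to -0.0080 under quantile normalization. MELO3C015640.2 averaged 0.213 TPM in mutant and 2.40 TPM in WT flesh at 25 DAP, and it passed the filter only through the 3 WT libraries of that age, so no test is given for it. MELO3C001427.2 and MELO3C007777.2 were called at no age, with limma adjusted p-values of 0.0676 and 0.0569 at their lowest, both at 35 DAP.

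Taking all 21 tested multicopper oxidases other than L-ascorbate oxidase, which include laccases and SKU5-like proteins, 1 was higher and 0 lower in mutant flesh at 15 DAP. At 25 DAP 8 were higher and 2 lower, at 35 DAP 6 were higher and 3 lower, and at 45 DAP 7 were higher and 3 lower. The 2 lower at 25 DAP include MELO3C015640.2, and with the filter of 5 TPM 7 were higher and 1 lower at that age. Over all genes tested, 10.3%, 48.6%, 41.2% and 38.5% were higher and 7.99%, 18.3%, 23.2% and 22% lower at the 4 ages. The median log2 change of the list was -0.08, 0.58, 0.08 and 0.17 at these ages, beside 0.03, 0.44, 0.27 and 0.22 over all genes tested. With median-of-ratios scaling 5 were higher and 4 lower at 25 DAP and again at 35 DAP, and with quantile normalization 4, 2 and 5 were higher and 5, 8 and 5 lower at the 3 later ages. SKU5 (MELO3C008759.2), a monocopper oxidase-like protein known in Arabidopsis for directional root growth, was at 36.6 TPM in mutant and 23.1 TPM in WT flesh at 25 DAP (log2 change 0.64, limma adjusted p = 0.00154), a call that ended with median-of-ratios scaling (limma adjusted p = 0.141). Within a genotype, 11 of the 21 changed between 15 and 25 DAP in WT flesh, 4 between 25 and 35 DAP and 0 between 35 and 45 DAP, beside 63.4%, 38.9% and 16% of all genes tested. In mutant flesh 0, 2 and 4 changed at these steps, beside 19.1%, 20.5% and 29.2% of all genes tested.

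Genes that make ascorbate moved in both directions. Of 20 tested genes, 3 were higher and 3 lower in mutant flesh at 15 DAP and again at 25 DAP, 6 were higher and 9 lower at 35 DAP, and 10 were higher and 7 lower at 45 DAP, with list medians of -0.02, 0.04, -0.33 and 0.39. Medians over all genes tested were 0.03, 0.44, 0.27 and 0.22, with 10.3%, 48.6%, 41.2% and 38.5% higher and 7.99%, 18.3%, 23.2% and 22% lower. At the 3 later ages 1, 4 and 6 genes of the list were higher and 10, 9 and 8 lower with median-of-ratios scaling. With quantile normalization 1, 4 and 7 were higher and 9, 11 and 8 lower. Mannose-1-phosphate guanylyltransferase 1 (MELO3C008241.2), which makes GDP-mannose, was at 167, 198 and 292 TPM in mutant flesh at 25, 35 and 45 DAP, against 66.4, 41.6 and 54.2 TPM in WT flesh. Its log2 changes were 1.33, 2.22 and 2.40 (SE 0.16; limma adjusted p = 5.13e-07, 5.2e-10 and 2.12e-10). Inositol oxygenase (MELO3C013014.2), which opens myo-inositol to glucuronate, was at 4.37, 2.33 and 1.57 TPM in mutant flesh at these ages, against 29.2, 19.3 and 20.4 TPM in WT flesh. It was lower in mutant flesh at each of these 3 ages (log2 changes -2.54, -2.62 and -3.04, limma adjusted p = 1.32e-07, 8.16e-08 and 1.34e-08). At 15 DAP it was lower as well (log2 change -1.08, limma adjusted p = 0.00869). Mannose-6-phosphate isomerase (MELO3C020220.2), an early enzyme of the GDP-mannose route, was lower in mutant flesh at 25 DAP, at 2.58 TPM in mutant and 8.79 TPM in WT flesh (limma adjusted p = 2.47e-05). The isomerase was also lower at 15 and 35 DAP (log2 changes -1.38 and -0.65, limma adjusted p = 0.00047 and 0.0222). At 45 DAP it was higher, at 3.98 TPM in mutant and 0.997 TPM in WT flesh (limma adjusted p = 8.78e-05). With only the 6 libraries compared, 0 genes of the list were higher and 0 lower at 15 DAP.

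Of 12 tested genes that use or regenerate ascorbate, 1 was higher and 0 lower in mutant flesh at 15 DAP. At 25 DAP and at 35 DAP 3 were higher and 5 lower, and at 45 DAP 2 were higher and 5 lower. The list medians were 0.09, -0.17, 0.03 and -0.07, beside 0.03, 0.44, 0.27 and 0.22 over all genes tested. Of all genes tested, 10.3%, 48.6%, 41.2% and 38.5% were higher and 7.99%, 18.3%, 23.2% and 22% lower. With median-of-ratios scaling 3 genes of the list were higher and 7 lower at 25 DAP, and the list medians from 25 DAP on were -0.51, -0.22 and -0.29. With quantile normalization these medians were -0.54, -0.20 and -0.38, and with only the 6 libraries compared 0 were higher and 5 lower at 35 DAP. Ascorbate peroxidase, which spends ascorbate to remove hydrogen peroxide, was represented by MELO3C013362.2 at 88.8 TPM in mutant and 263 TPM in WT flesh at 25 DAP (log2 change -1.56, limma adjusted p = 1.85e-10). The peroxidase MELO3C010627.2 was at 42.9 TPM in mutant and 86.6 TPM in WT flesh at that age (limma adjusted p = 7.95e-05). A monodehydroascorbate reductase (MELO3C021554.2), which acts on the product of ascorbate oxidase, was at 34.8 TPM in mutant and 82.6 TPM in WT flesh at 35 DAP (log2 change -1.22, limma adjusted p = 1.13e-07). Glutathione reductase (MELO3C015771.2) was at 16.5 TPM in mutant and 26.0 TPM in WT flesh at 35 DAP (log2 change -0.62, limma adjusted p = 0.000104).

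Among 86 tested genes of metal transport and chelation, 10 were higher and 8 lower in mutant flesh at 15 DAP. At 25 DAP 43 were higher and 18 lower, at 35 DAP 45 were higher and 15 lower, and at 45 DAP 52 were higher and 16 lower. Their median log2 changes of -0.07, 0.67, 0.67 and 0.89 stand beside medians of 0.03, 0.44, 0.27 and 0.22 over all genes tested. At 25 DAP 36 were higher and 25 lower with median-of-ratios scaling, and 30 and 27 with quantile normalization, and the list medians then were 0.49 and 0.23. Several of the named genes were heavy metal-associated isoprenylated plant proteins, which carry a metal-binding domain and a lipid anchor. MELO3C019416.2, of type 21, was at 155 TPM in mutant and 0.0567 TPM in WT flesh at 35 DAP (log2 change 7.21, limma adjusted p = 4e-14). MELO3C007779.2, of type 20, was at 422 TPM in mutant and 2.06 TPM in WT flesh at 45 DAP (log2 change 7.17, limma adjusted p = 2.26e-12). MELO3C021404.2, of type 21, was at 169 TPM in mutant and 2.45 TPM in WT flesh at 35 DAP (log2 change 5.65, limma adjusted p = 4.36e-13). At 15 DAP these 3 genes were at 152, 472 and 274 TPM in mutant and 166, 349 and 242 TPM in WT flesh, and none was called (limma adjusted p = 0.787, 0.438 and 0.705).

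A metal tolerance protein (MELO3C022448.2), of a family that moves zinc or manganese out of the cytosol, was at 59.9 TPM in mutant and 3.59 TPM in WT flesh at 25 DAP (log2 change 3.71, limma adjusted p = 5e-12). The protein of type 3 (MELO3C005710.2) was at 0.72 TPM in mutant and 94.0 TPM in WT flesh at 25 DAP (log2 change -5.78, limma adjusted p = 1.04e-11), and at 12.1 TPM in mutant and 2.66 TPM in WT flesh at 45 DAP (log2 change 1.95, limma adjusted p = 1.44e-05). The metal transporter Nramp3-like (MELO3C019215.2), of a family that carries iron and manganese, was at 157 TPM in mutant and 60.1 TPM in WT flesh at 45 DAP (log2 change 1.37, limma adjusted p = 3.2e-08). It was lower in mutant flesh at 15 and 25 DAP (log2 changes -0.94 and -0.62, limma adjusted p = 5.58e-05 and 0.000348). A heavy metal-associated domain protein (MELO3C006564.2) was at 18.4 TPM in mutant and 0.21 TPM in WT flesh at 35 DAP (log2 change 3.91, limma adjusted p = 7.41e-09). Its log2 changes at 15, 25 and 45 DAP were 2.05, 3.45 and 1.94 (limma adjusted p = 0.000304, 4.24e-08 and 5.66e-05). Both 15 DAP calls ended with only the 6 libraries compared (limma adjusted p = 0.0532 and 0.0523). In WT flesh 12 of the 86 genes rose and 45 fell between 15 and 25 DAP, 13 rose and 22 fell between 25 and 35 DAP, and 1 rose and 10 fell between 35 and 45 DAP, or 57, 35 and 11 genes called beside 63.4%, 38.9% and 16% of all genes tested. In mutant flesh 18, 24 and 25 of the 86 changed at these steps, beside 19.1%, 20.5% and 29.2% of all genes tested. The shares changed at these age steps lie near those of all genes.

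Of 21 tested small copper proteins and copper enzymes, 3 were higher and 3 lower in mutant flesh at 15 DAP, 10 were higher and 5 lower at 25 DAP, 8 were higher and 7 lower at 35 DAP, and 5 were higher and 6 lower at 45 DAP, with list medians of 0.05, 0.76, 0.18 and 0.07. All genes tested had medians of 0.03, 0.44, 0.27 and 0.22, with 10.3%, 48.6%, 41.2% and 38.5% higher and 7.99%, 18.3%, 23.2% and 22% lower. With quantile normalization 6, 7 and 4 genes of the list were higher and 6, 9 and 8 lower at the 3 later ages. Blue copper protein (MELO3C023420.2) was at 71.3, 69.4 and 108 TPM in mutant flesh at 25, 35 and 45 DAP, against 1.13, 0.713 and 1.79 TPM in WT flesh (limma adjusted p = 1.23e-07, 4.57e-08 and 7.26e-08). A copper-zinc superoxide dismutase (MELO3C008809.2), which converts superoxide to hydrogen peroxide, was at 32.2, 20.9 and 20.9 TPM in mutant flesh at these ages, against 3.72, 4.83 and 1.48 TPM in WT flesh (limma adjusted p = 2.71e-10, 4.79e-08 and 5.85e-11). Mavicyanin-like protein (MELO3C014390.2) was at 36.1 TPM in mutant and 0.17 TPM in WT flesh at 35 DAP (limma adjusted p = 1.42e-12). The blue copper protein-like gene MELO3C014540.2 was lower in mutant flesh at 15, 35 and 45 DAP. Its log2 changes were -0.79, -0.90 and -1.12 (limma adjusted p = 0.00318, 0.000132 and 1.4e-05). The superoxide dismutase MELO3C026955.2 was higher at 15 and 45 DAP and lower at 25 DAP. Its log2 changes were 1.06, 0.50 and -0.95 (limma adjusted p = 0.0015, 0.0453 and 0.000544). Both 15 DAP calls ended with only the 6 libraries compared (limma adjusted p = 0.0866 and 0.143). The split of calls over all genes moved with scaling: 72.7%, 63.9% and 63.6% of calls at 25, 35 and 45 DAP were higher in mutant flesh, against 53.4%, 52.8% and 52.0% with median-of-ratios scaling and 48.6%, 47.1% and 44.4% with quantile normalization. At 15 DAP the 6 lists held 33 calls, of which 7 remained in number when only the 6 libraries of that age were fitted.

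**Figure D3:**
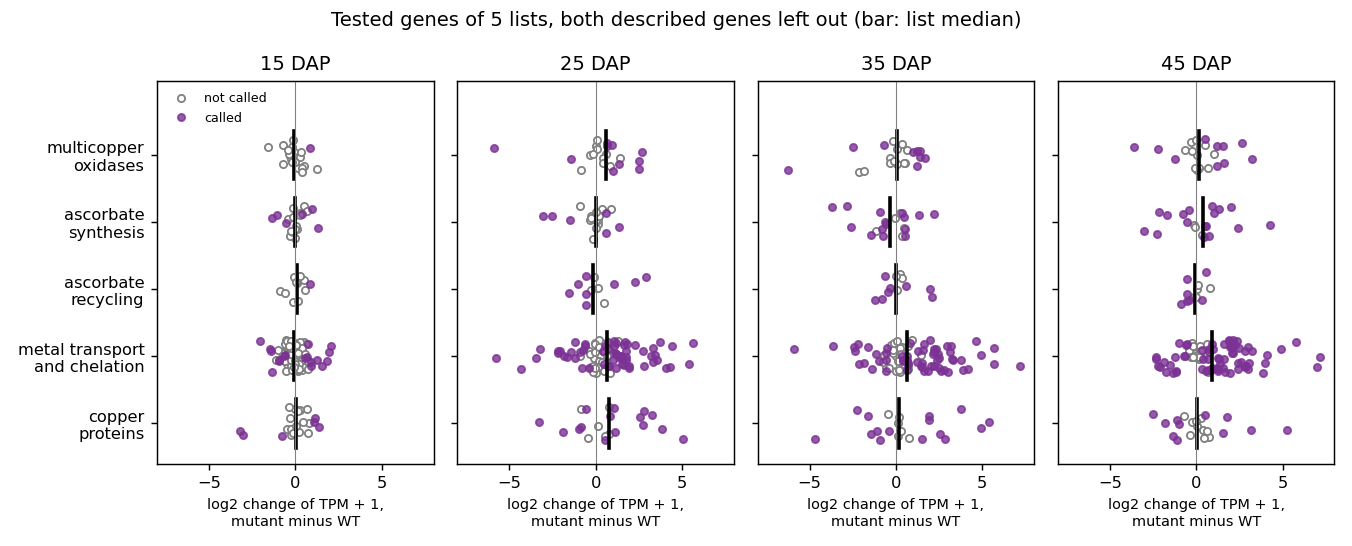
Log2 change of TPM + 1, mutant minus WT, for every tested gene of 5 gene lists at 15, 25, 35 and 45 DAP, without metallothionein-like 4A and L-ascorbate oxidase. Filled points are genes called by limma, open points are not called, and black bars are list medians. The metal transport and chelation genes have medians of 0.67, 0.67 and 0.89 from 25 DAP on, and the ascorbate lists lie on both sides of 0.

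The levels of metallothionein-like 4A and L-ascorbate oxidase were related but not alike. Their log2(TPM + 1) had a Pearson correlation of 0.818 over the 24 libraries, given as a description since the libraries fall into the same 8 groups. Among 13005 genes ordered by likeness to metallothionein-like 4A, L-ascorbate oxidase was at position 999, and metallothionein-like 4A was at position 2831 in the order for L-ascorbate oxidase. The ratio of metallothionein-like 4A to L-ascorbate oxidase TPM lay, over the mutant libraries of an age, between 6.22 and 9.74 at 15 DAP and between 4.38 and 22.3 at 25 DAP. In older mutant flesh it lay between 2.54 and 4.44 at 35 DAP and between 26.5 and 48.0 at 45 DAP. In WT flesh it was between 26.7 and 65.4 at 15 DAP and between 1204 and 11531 at 25 DAP, the age at which L-ascorbate oxidase was already near 0 and metallothionein-like 4A still averaged 4540 TPM.

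The 5 genes most like metallothionein-like 4A across the 24 libraries were MELO3C005442.2, listed as a BnaC09g40830D protein (Pearson correlation 0.986), MELO3C010210.2, an unknown protein (0.984), the gibberellin 20 oxidase 1-like gene MELO3C022518.2 (0.981), the METTL21A-like gene MELO3C013880.2 (0.980) and the RING-H2 finger gene ATL16 (MELO3C004441.2, 0.980). Gibberellin 20 oxidases catalyse late steps in the synthesis of gibberellin hormones. The gibberellin 20 oxidase 1-like gene had means of 172, 273, 84.4 and 173 TPM in mutant flesh at the 4 successive ages, against 401, 46.9, 0.233 and 0.383 TPM in WT flesh. Like metallothionein-like 4A, it was lower in mutant than in WT flesh at 15 DAP and higher at the later ages.

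The 5 genes most like L-ascorbate oxidase were an exostosin family gene (MELO3C024715.2, 0.992), a C3HC4-type RING finger gene (MELO3C019807.2, 0.990), a receptor-like kinase (MELO3C011283.2, 0.990), eukaryotic initiation factor 4A (MELO3C007557.2, 0.990) and delta(24)-sterol reductase (MELO3C023603.2, 0.989). Delta(24)-sterol reductase acts in the synthesis of plant sterols and brassinosteroids. It had means of 166, 86.2, 105 and 21.1 TPM in mutant flesh at the successive ages, against 51.9, 0.913, 0.377 and 0.243 TPM in WT flesh. Initiation factor 4A, an RNA helicase of translation, had a narrower span, at 131, 125, 150 and 89.2 TPM in mutant flesh against 108, 34.3, 28.0 and 32.2 TPM in WT flesh. These genes were picked by likeness, so their genotype differences are not tested results.

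**Figure D4:**
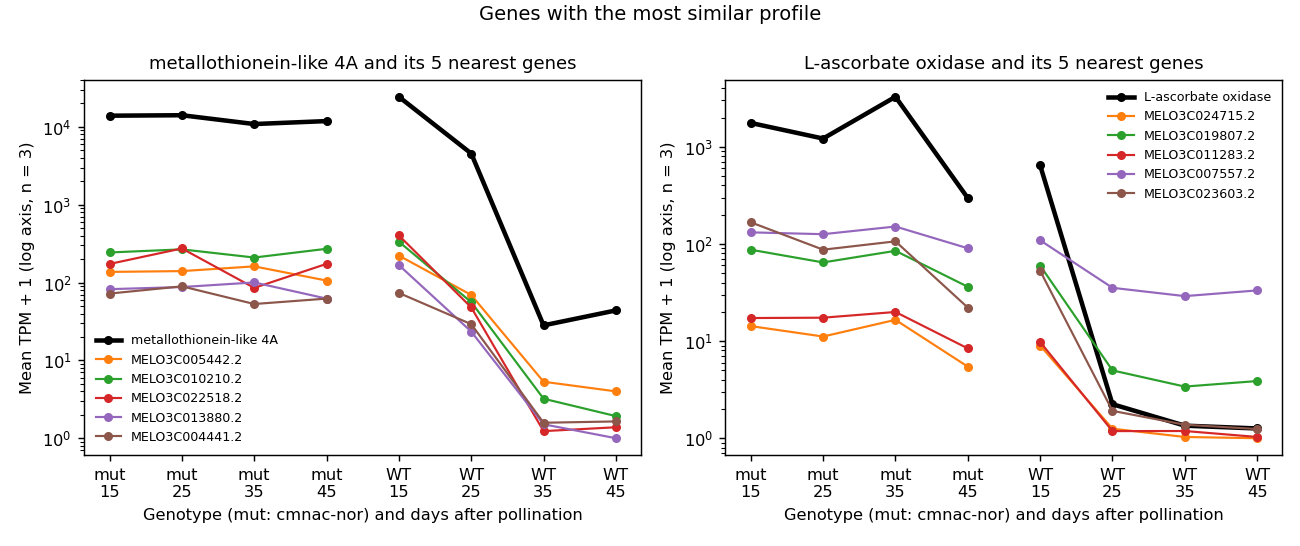
Mean TPM + 1 (log axis, n = 3 libraries) of metallothionein-like 4A (left) and L-ascorbate oxidase (right), in black, with the 5 genes of highest Pearson correlation to each, in colour. The 8 groups run along the horizontal axis, cmnac-nor mutant and then WT, each by days after pollination. The 5 genes nearest to metallothionein-like 4A have mutant means of 52.0 TPM or more at every age and WT means of 4.32 TPM or less at 35 and 45 DAP, and those nearest to L-ascorbate oxidase have their lowest mutant mean at 45 DAP, as L-ascorbate oxidase has at 296 TPM.

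Markers of other tissues were measured beside these results. In bulk flesh, fewer cells of a type and less RNA per cell cannot be told apart. The summed level of 28 genes described as phloem proteins, phloem lectins or sieve element proteins had medians of 25327, 6823, 5290 and 9430 TPM in mutant flesh at the 4 successive ages, against 12007, 2502, 355 and 136 TPM in WT flesh. Its range over libraries was 11539 to 26185 TPM in mutant and 10121 to 19837 TPM in WT flesh at 15 DAP, and the genotypes overlapped at that age. They did not overlap later, with 7177 to 10600 TPM in mutant and 98.3 to 151 TPM in WT flesh at 45 DAP. Of 25 tested phloem genes, 2, 18, 19 and 13 were higher and 1, 1, 2 and 0 lower in mutant than in WT flesh at the successive ages. Over all genes tested, 10.3%, 48.6%, 41.2% and 38.5% were higher and 7.99%, 18.3%, 23.2% and 22% lower. With only the 6 libraries compared, 0 phloem genes were called at 15 DAP and 11 were higher at 35 DAP. Of the 28 genes, 1 was at 0 throughout.

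Within WT flesh, 1 of the 25 tested phloem genes rose and 21 fell between 15 and 25 DAP, and 11 and then 8 fell at the later steps with 0 rising, beside 63.4%, 38.9% and 16% of all genes tested called in either direction. Within mutant flesh 1 rose and 5 fell, then 0 rose and 6 fell, and between 35 and 45 DAP 7 rose and 7 fell. Of all genes tested, 19.1%, 20.5% and 29.2% were called in either direction at these mutant steps. At 15 DAP the largest part of the sum came from the 26 kDa phloem lectin MELO3C002874.2, at 15387 TPM in mutant and 9042 TPM in WT flesh. Members differed: the SIEVE ELEMENT OCCLUSION B gene MELO3C026765.2 averaged 70.3, 35.8, 31.7 and 0.907 TPM in mutant flesh at the successive ages, against 78.7, 0.01, 0 and 0 TPM in WT flesh. The phloem protein 2-like gene MELO3C016833.2 had means between 15.8 and 29.9 TPM in mutant flesh and between 22.7 and 25.0 TPM in WT flesh. The phloem genes named here were picked out after their values were seen. At positions 6 and 8 in the likeness order of metallothionein-like 4A stood genes described as PHLOEM PROTEIN 2-LIKE A1, while another gene of that description, MELO3C018681.2, averaged 2659, 542, 141 and 978 TPM in mutant and 1073, 35.5, 1.92 and 0.027 TPM in WT flesh. The gene at position 6, MELO3C027112.2, had means of 384, 348, 431 and 551 TPM in mutant flesh at the successive ages, against 607, 105, 2.37 and 0.07 TPM in WT flesh. The part of phloem in the levels of either gene was not tested.

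Seed storage and oil-body genes gave a different picture. The summed level of 20 such genes was 82.8 to 163 TPM in mutant and 105 to 115 TPM in WT flesh at 15 DAP, the age at which metallothionein-like 4A was highest in WT flesh. It was 781 to 1479 TPM in mutant and 110 to 164 TPM in WT flesh at 45 DAP, where a caleosin-related gene (MELO3C026432.2), picked out after its values were seen, averaged 793 TPM in mutant and 7.82 TPM in WT flesh and made up most of the mutant sum. Of the 10 tested seed genes, 5 were higher and 2 lower in mutant flesh at that age, beside 38.5% higher and 22% lower of all genes tested. The caleosin MELO3C023038.2 averaged 166 TPM in mutant and 0.833 TPM in WT flesh at 45 DAP. The oleosin 1-like gene MELO3C011123.2 was at 21.9 TPM in mutant and 104 TPM in WT flesh at that age. Both were picked out after their values were seen. The metallothionein MELO3C016513.2 was also high in mutant flesh at 45 DAP, but in WT flesh it was high at 25 DAP, where the seed genes summed to 46.4 to 64.0 TPM. The part of seed tissue in these levels was not tested. Of the 20 seed genes, 5 were at 0 in every library, among them the 2S albumin MELO3C025418.2. The summed level of 23 rind and epidermis genes stayed between 78.3 and 126 TPM in mutant and between 50.8 and 180 TPM in WT libraries, and 1 of the 23 was at 0 throughout.

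**Figure D5:**
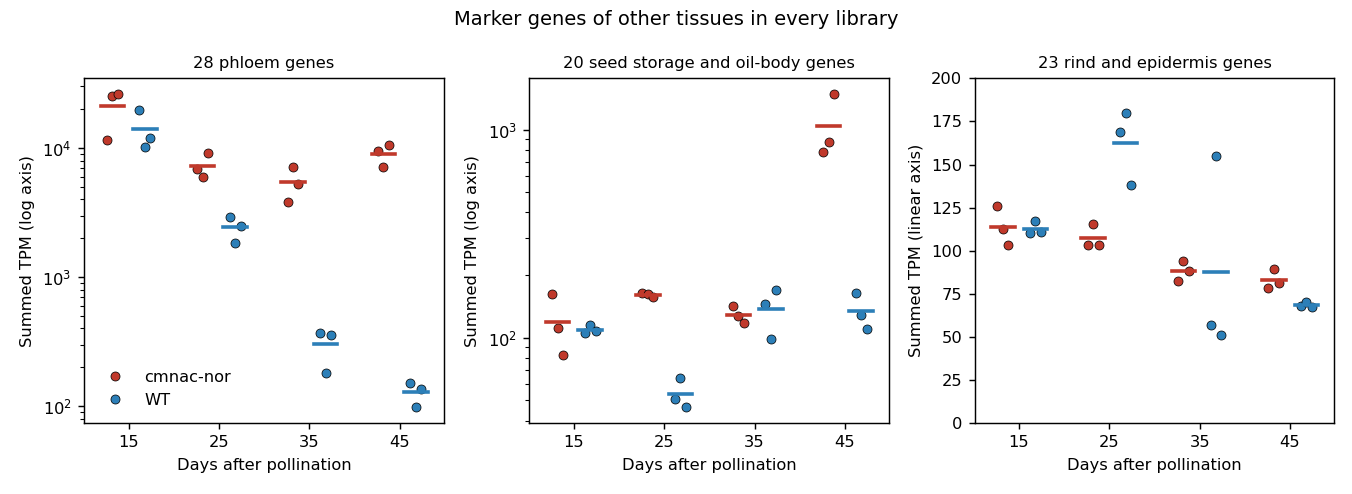
Summed TPM of 28 phloem genes (left, log axis), 20 seed storage and oil-body genes (middle, log axis) and 23 rind and epidermis genes (right, linear axis) against days after pollination. Points are libraries and bars are means of 3, with cmnac-nor mutant in red and WT in blue. The phloem sum separates the genotypes from 25 DAP on, and the seed sum is raised in the mutant at 45 DAP, at 781 to 1479 TPM. Most of that raised sum came from the caleosin-related gene MELO3C026432.2, at a mean of 793 TPM.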

How the data were processed

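The authors deposited 1 table of values per gene and library. The deposited values were read as TPM from their decimals and their totals, since no header or label names the unit. Per the submitters' processing notes, Cufflinks, StringTie, HISAT2 and TopHat2 were used, with no version or role stated, and the build is not given in the sources used here. Genotype, age and replicate came from the sample titles. Genes at 1 TPM or more in at least 3 libraries (17658 of 29980) were tested with limma 3.58.1 in R 4.3.3: limma-trend on log2(TPM + 1), all 24 libraries, 8 group means, no covariate, two-sided, with Benjamini-Hochberg adjustment within a comparison. The fit was tested on simulated data. Comparisons that use the same libraries are not independent. Lists came from words in the gene descriptions, and both described genes were left out of their counts. Named genes were the other tested metallothioneins and ascorbate oxidases, the 5 nearest genes by Pearson correlation among described genes reaching a mean of 10 TPM, and per list and age up to 2 called genes with the smallest adjusted p and a mean of 10 TPM or more. The genes described, the lists and the tests were chosen with earlier results of these data known. Alternatives were a pseudocount of 0.1, no filter, a filter of 5 TPM, median-of-ratios scaling, quantile normalization, a replicate block, fits to only the 6 libraries compared, and leaving out each library. A first seed marker list also matched other genes and was narrowed to storage and oil-body proteins after the data were seen.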

Additional observations from a re-analysis of the deposited data

Results flagged for a closer look

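Among the named genes, those picked by likeness left aside, 8 had genotype differences of opposite sign at 2 ages. In each case every library of 1 genotype was above every library of the other. The difference between ages was not tested for any of them. Genes picked by likeness can show the same reversal. MELO3C005442.2 averaged 136 TPM in mutant and 221 TPM in WT flesh at 15 DAP, and 160 and 4.32 TPM at 35 DAP, without overlap. Each value below is the larger of the 2 log2 differences of mutant minus WT, sign kept, less the smaller, whichever age was older. Metallothionein-like 4A (MELO3C003132.2) differed by 9.51, with 8.70 at 35 DAP and -0.81 at 15 DAP. The metallothionein MELO3C016513.2 differed by 11.67, with 5.70 at 45 DAP and -5.97 at 25 DAP. The ascorbate oxidase homolog MELO3C017005.2 differed by 3.32, with 0.85 at 15 DAP and -2.47 at 35 DAP, and its value at 15 DAP lost its call without any of 5 of the 6 libraries of that age. Mannose-6-phosphate isomerase (MELO3C020220.2) differed by 2.77, with 1.31 at 45 DAP and -1.46 at 25 DAP. Inositol monophosphatase (MELO3C007440.2), an enzyme that releases free inositol, differed by 0.89, with 0.35 at 45 DAP, not called, and -0.54 at 15 DAP, where the call was lost with WT replicate 2, mutant replicate 2 or mutant replicate 3 of that age left out in turn (limma adjusted p of 0.11, 0.0935 and 0.0807) and with only the 6 libraries compared (limma adjusted p = 0.221). The metal transporter Nramp3-like (MELO3C019215.2) differed by 2.30, with 1.37 at 45 DAP and -0.94 at 15 DAP. The heavy metal-associated isoprenylated plant protein of type 3 (MELO3C005710.2) differed by 7.72, with 1.95 at 45 DAP and -5.78 at 25 DAP. A copper-zinc superoxide dismutase (MELO3C026955.2) differed by 2.01, with 1.06 at 15 DAP and -0.95 at 25 DAP.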

How the results depend on the processing

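With only the 6 libraries compared, 695 genes were called at 15 DAP between genotypes (3232 with all libraries), 1011 in WT between 35 and 45 DAP (2821) and 705 in the mutant between 15 and 25 DAP (3366), and 7 members of the 6 lists were called at 15 DAP (33). Leaving out 1 library at a time moved these gene counts between 2089 and 3556, between 1533 and 3635, and between 1940 and 4019. With a pseudocount of 0.1 the log2 difference of L-ascorbate oxidase at 25, 35 and 45 DAP was 10.09, 12.85 and 9.75. It was 11.07 at 35 DAP with median-of-ratios scaling, and 10.90 at 35 DAP and 7.38 at 45 DAP with quantile normalization. The homolog MELO3C020889.2 at 25 DAP turned to -0.0080 (limma adjusted p = 0.975) with quantile normalization. For metallothionein-like 4A, steps whose ages overlapped changed sign: leaving out 1 library gave -0.44 to 0.34, -0.70 to 0.080 and -0.30 to 0.30 for the successive mutant steps, quantile normalization gave 0.60 for the mutant step to 25 DAP, and leaving out 1 library gave -0.26 to 0.77 for the WT step to 45 DAP. Of 50 calls of named genes, 44 held with quantile normalization and 40 with only the 6 libraries compared, where all 8 at 15 DAP ended. These 50 include MELO3C015640.2 at 25 DAP and leave out calls printed at ages for which the naming rule did not pick the gene. With the replicate block all 50 held. Same-numbered libraries of the genotypes had correlations of deviations between -0.314 and 0.0619. The labels do not say whether the numbers mark a shared plant or day, and these correlations cannot decide it. The causes were not tested. Unknown depth limits what can be said of genes near 0 TPM.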
